A study of Mus musculus with 9 samples.

Results

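Gene expression was compared directly between 2 chemotherapy-surviving derivatives of the same mouse mammary carcinoma line, DR500 and MR20. The comparison used 3 DR500 and 3 MR20 arrays of the 9 arrays in the series, and the 3 arrays of the parental line 4T1 served only to place the level of a gene that differed. Members were all 19938 genes that had a probe set with exactly 1 gene symbol, out of the same 19938 in the whole series. MR20 cells survived methotrexate, a folate antagonist, at 20 µg/ml according to the labels (the study's text writes ng/ml), for up to 2 weeks, and then recovered for 2 weeks without drug. According to the labels, DR500 cells were selected at doses raised to 500 ng/ml over up to 2 weeks. The study's methods describe a longer course for them, a week at each of several rising doses, and then a recovery period in normal medium. The treatment protocol of DR500 names doxorubicin, an anthracycline, whereas other fields of its labels name methotrexate. The 4T1 cells received no drug. No other treatment or allele is given for any line, and each selected line is the survivor population of a single selection. RNA came from triplicate wells of each line. The titles call the 4T1 and MR20 arrays biological replicates and the DR500 arrays only samples, while the study's legends name biological triplicates for both comparisons with 4T1. The p-values measure the spread between wells, which may be technical, and not between independent selections.

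Expression was read on 1-colour whole-transcript mouse arrays, in which the probes of a gene are summarised to a log2 value, and a difference of 1 on this scale is 2-fold. A gene was called when its adjusted p was under 0.05 in limma (Benjamini-Hochberg over all 19938 genes) and it differed over 2-fold. It passed the test when its adjusted p alone was under 0.05. With 3 arrays against 3, an exact two-sided permutation test of a single gene cannot go below 0.1. The DR500 samples were labelled in another style than the others and no array batch is stated, so line and batch cannot be told apart. Array medians over all probe sets lay between 6.24 and 6.38. Across the 19938 genes, arrays of the same line correlated at 0.9954 to 0.9988, and DR500 with MR20 arrays at 0.9664 to 0.9718.

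Of the 19938 genes, 572 were called higher in DR500 than in MR20 (2.87%) and 644 were called lower (3.23%), together 6.1%. At the adjusted p alone, 3679 genes (18.5%) were higher and 3811 (19.1%) lower, together 37.6%. Counts of gene lists below are of members that passed the test and are to be read against these shares. Dim genes passed less often. With dim genes left out, 31.6% of 9965 genes placed on chromosomes were higher and 37.3% lower. Lists of mostly bright genes are to be read against these larger shares, since list counts were not matched for level. The 3 DR500 and 3 MR20 values did not overlap in 9924 genes (49.8%), which included all 1216 called genes. Large differences were more often falls. Beyond 10-fold, 31 genes were higher in DR500 and 68 lower, and beyond 32-fold 5 were higher and 8 lower. The median difference over all genes was 0.07 on the log2 scale. In 155 of the 572 higher and 195 of the 644 lower genes, the line with less RNA was below the array median of 6.33, where a fold change is compressed.

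**Figure D1:**
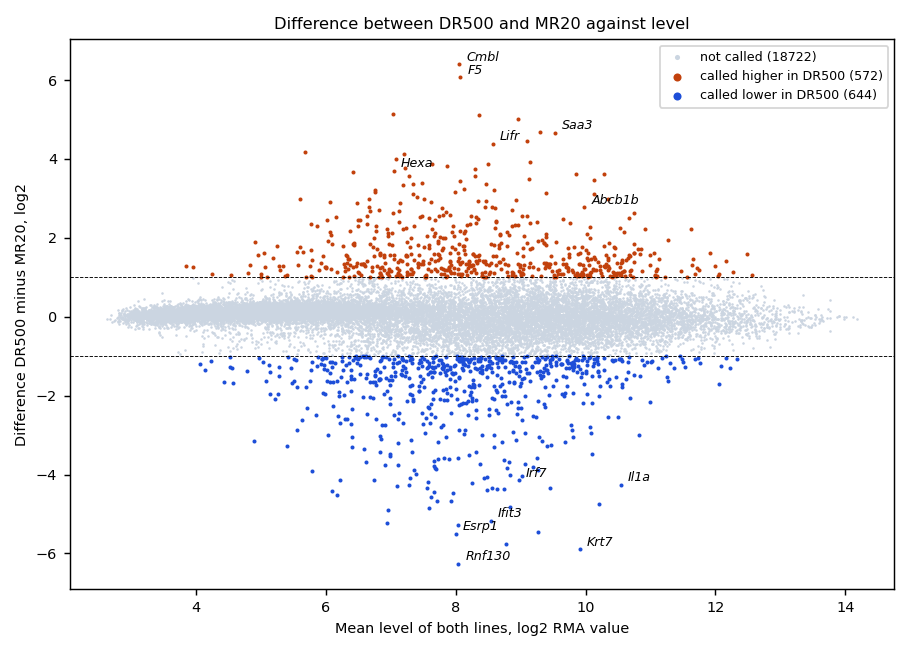
Difference between DR500 and MR20 (log2, mean of 3 arrays each) against the mean level of both lines (log2 RMA value), with 1 point per gene and dashed lines at 2-fold. The 572 genes called higher reach 6.40 (Cmbl) and the 644 called lower reach -6.26 (Rnf130), and called genes occur over most of the range of levels.

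Krt8 and Krt18, a keratin pair of simple epithelium used here as markers of mammary carcinoma cells, were high in both lines. Krt8 was at 13.43 ± 0.08 (SD, n = 3) in DR500 and 13.60 ± 0.02 in MR20 and did not pass the test, and Krt18 was lower in DR500, at 12.63 ± 0.07 against 13.20 ± 0.05. Other keratins of this class, Krt7 and Krt19, were far lower in DR500, with the values given below. The 2 other epithelial defining markers, Epcam and Cdh1, were more than 10-fold lower in DR500, as described below. Markers of other cell types were measured because small shares of other cells could move a cell line's profile. Of 19 macrophage and leukocyte markers, 5 were higher (8 without DR500 array 3) and 2 lower, with an average level over the list of 6.15 to 6.30 in DR500 and 6.02 to 6.06 in MR20 arrays. The pan-leukocyte gene Ptprc was at 5.24 ± 0.04 and 5.18 ± 0.11, below the array median in both. Of 14 fibroblast markers, 6 were higher and 1 lower (2 without DR500 array 1), at 6.29 to 6.45 against 5.81 to 5.87. Of 14 lymphocyte markers, 1 was higher (0 without MR20 array 2 or 3, and 3 without DR500 array 3) and 0 lower, at 5.01 to 5.19 against 4.91 to 4.98. Of 12 endothelial markers, 0 passed in limma, 0 also at an unadjusted p under 0.05 and 1 without DR500 array 3, at 5.45 to 5.62 against 5.36 to 5.52. The part of such cells in the differences was not tested, and in bulk samples a smaller share of cells and less RNA per cell cannot be told apart. Single members that moved within these lists included Cd53, a leukocyte tetraspanin, at 9.17 ± 0.20 in DR500 and 5.78 ± 0.10 in MR20. Lcp1, an actin-bundling protein of leukocytes and many carcinomas, was at 5.39 ± 0.28 and 9.72 ± 0.02. The macrophage marker Cd68 was at 11.07 ± 0.09 in DR500 and 10.00 ± 0.05 in MR20, with 4T1 at 8.77 ± 0.07. Fbln1, given below, had the largest rise of the fibroblast list. Pdgfra, the alpha receptor of platelet-derived growth factor, was higher in DR500 (10.07 ± 0.06 against 7.74 ± 0.16) and Postn, which encodes periostin, was lower (4.55 ± 0.22 against 6.86 ± 0.26).

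The largest fall in DR500 was that of Rnf130, followed by Krt7. Rnf130, a membrane-bound ubiquitin ligase, was at 5.15, 4.82 and 4.77 in DR500 and at 11.15, 11.22 and 11.14 in MR20. This was a difference of -6.26 (SE 0.10), or 76.5-fold (adjusted p = 1.97e-08, limma), and the 4T1 arrays at 10.75 to 10.79 lay beside MR20. Krt7, a keratin of simple and glandular epithelium, was at 7.01, 7.05 and 6.83 in DR500 and at 12.79, 12.90 and 12.89 in MR20. The difference was -5.90 (SE 0.08), with 4T1 again near MR20 at 12.64 ± 0.05. Tmem54, a membrane protein of uncertain role, differed by -5.76 (SE 0.13). Esrp1, which encodes an epithelial splicing regulator, was at 5.58, 5.11 and 5.04 against 10.84, 10.71 and 10.70, a 45.5-fold difference. Serpinb5 (maspin), an epithelial serpin, differed by -5.23 (SE 0.10), Mal2, an apical transport protein, by -4.85 (SE 0.10) and Fermt1 (kindlin-1), an integrin activator of epithelium, by -4.66 (SE 0.14). In each of these 7 genes the 3 arrays of DR500 were well apart from the 6 others. In another set of the 15 largest falls, 4T1 lay nearer to DR500. Cmpk2, Ifit3, Usp18, AW112010, Chil1 and Plekhs1 had differences from -4.57 (Plekhs1) to -5.29 (Cmpk2), with 4T1 within 2 units of DR500. For AW112010, 4T1 at 6.40 ± 0.06 still lay between DR500 at 4.51 ± 0.21 and MR20 at 9.42 ± 0.10. Krt14, a basal keratin, took an intermediate place, with 6.43 ± 0.07 in DR500, 9.01 ± 0.03 in 4T1 and 11.26 ± 0.09 in MR20.

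**Figure D2:**
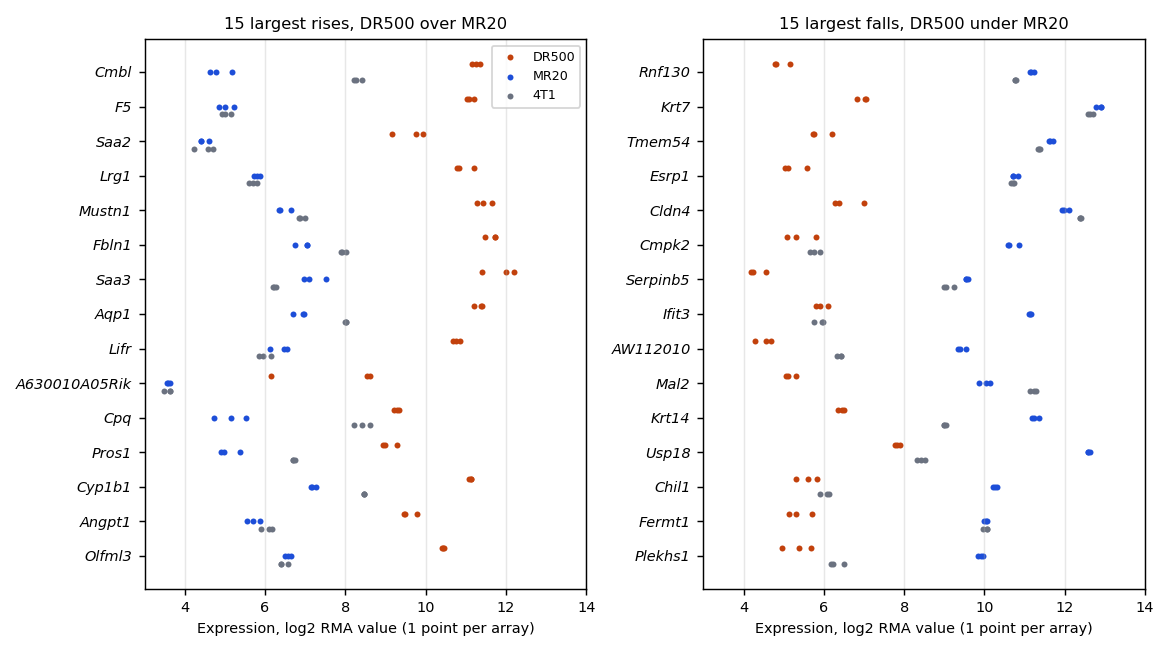
Log2 RMA values of each array for the 15 genes with the largest rises (left) and the 15 with the largest falls (right) of DR500 against MR20, with DR500, MR20 and 4T1 in separate colours. The DR500 and MR20 points do not overlap in any of the 30 genes, and 4T1 lies near MR20 for Rnf130, Krt7 and F5, near DR500 for Ifit3 and Cmpk2, and between the lines for Cmbl and Krt14.

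The largest rises in DR500 held secreted plasma and matrix proteins. Cmbl, a cytosolic hydrolase, was at 11.15, 11.35 and 11.26 in DR500 and at 4.77, 5.17 and 4.62 in MR20, an 84.3-fold difference (log2 6.40, SE 0.14, adjusted p = 4.39e-08, limma). The 4T1 arrays at 8.22 to 8.42 lay between the lines, so that both derivatives stood apart from the parent in opposite directions. F5, coagulation factor V, was at 11.09, 11.03 and 11.19 in DR500 and at 4.86, 5.01 and 5.24 in MR20, where 4T1 also lay (5.03 ± 0.11). Its difference was 6.07 (SE 0.10). Pros1, the anticoagulant protein S, was higher by 3.99 (SE 0.14). Fbln1, which encodes the matrix protein fibulin 1, was higher by 4.70 (SE 0.11), and Mustn1, a small nuclear protein of muscle and skeleton, by 5.0 (SE 0.12). Aqp1, a water channel, was higher by 4.47 (SE 0.10), Cyp1b1, a cytochrome P450, by 3.92 (SE 0.07), and Angpt1, the ligand angiopoietin 1, by 3.86 (SE 0.11). Cpq, a carboxypeptidase, was at 9.28 ± 0.06 in DR500 and 5.14 ± 0.40 in MR20 with 4T1 at 8.41 ± 0.21, so here MR20 was the line that stood apart. A630010A05Rik had the widest spread of the 30 genes, at 6.14, 8.55 and 8.61 in DR500 against 3.55 to 3.63 in MR20. It kept its call in each alternative, with differences between 3.76 and 4.99.

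Interferons bind receptors that signal through Janus kinases to transcription factors, among them STAT2 and IRF9, that bind the interferon-stimulated response element in front of target genes. IRF7 is itself such a target and in turn drives interferon genes, and the targets include antiviral effectors, GTPases and chemokines. Of 27 core interferon-stimulated genes measured, 26 were lower in DR500 than in MR20 and 0 higher, 25 of them beyond 2-fold, with a median difference of -2.99 against 0.07 over all genes. The median of the list relative to 4T1 was 0.20 in DR500 and 3.37 in MR20, so the list differed between the lines mainly by its level in MR20. Isg15 and Ifi44 were among the list members not analysed here.

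The antiviral effector Ifit3, which binds other IFIT proteins on foreign RNA, was at 5.92, 5.82 and 6.11 in DR500 and at 11.17, 11.12 and 11.10 in MR20. The difference of -5.18 (SE 0.09) was 36.3-fold (adjusted p = 1.97e-08, limma), and 4T1 at 5.90 ± 0.13 overlapped DR500. Cmpk2, a mitochondrial nucleotide kinase next to the antiviral gene Rsad2, differed by -5.29 (SE 0.17). Usp18, which removes ISG15 from proteins and damps the receptor, was at 7.76, 7.91 and 7.83 against 12.58, 12.58 and 12.62. Rtp4, a receptor chaperone induced by interferon, differed by -4.33 (SE 0.07) and Rsad2 (viperin) by -4.15 (SE 0.10). Ifitm3, a membrane protein that blocks viral entry, was the member that did not pass, at 13.65 ± 0.05 in DR500 and 13.65 ± 0.03 in MR20, with 4T1 at 12.87 ± 0.04.

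To show what lies in front of such genes, the 250 bases before each start in the RefSeq promoter table (build GRCm38.p6) were searched on both strands for the response element, spelled GAAANNGAAA. Of the 27 core genes, 19 had a promoter there and 8 of these (42.1%) held the letters, against 936 of 27025 promoters (3.46%). The windows below are 80 bases 5′ to 3′ on the strand of the gene, before its start, with the element in capitals as read on that strand (TTTCNNTTTC when the element lies on the other strand). They belong to members with large differences that hold it.
Ifit3, chr19:34583372-34583451, plus strand: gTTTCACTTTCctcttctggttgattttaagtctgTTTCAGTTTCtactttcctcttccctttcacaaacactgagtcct
Rsad2, chr12:26456528-26456607, minus strand: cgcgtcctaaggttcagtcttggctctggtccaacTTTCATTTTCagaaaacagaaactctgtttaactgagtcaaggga
The Ifit3 window holds the element 2 times and the Rsad2 window 1 time. Ifit3b, a neighbouring copy of Ifit3 (chr19:34607768-34607847), has the same letters at all 80 positions, and it differed by -3.91 (SE 0.14). Since the copies are so alike, the values of Ifit3 and Ifit3b may share signal. A match of letters is a description of the window and shows no binding.

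Signalling genes of the pathway went in both directions. Of 25 factors measured, 10 were lower and 9 higher in DR500 (median -0.07). Irf7 was at 6.72, 6.97 and 7.00 in DR500, at 10.92 to 11.21 in MR20, and at 5.82, 6.31 and 6.22 in 4T1. Its difference of -4.15 (SE 0.11) was 17.7-fold (adjusted p = 8.26e-08, limma), and DR500 lay a little above 4T1 without overlap. Stat2 was at 7.75 ± 0.11 against 9.76 ± 0.10 and Irf9 at 8.72 ± 0.04 against 10.01 ± 0.06, differences of -2.01 (SE 0.08) and -1.30 (SE 0.06). The factors higher in DR500 were led by Socs3, a feedback inhibitor of IL6-type receptors, and Stat3, the transcription factor of these receptors, both given with the acute phase genes. Ifnar1, a chain of the type I interferon receptor, was higher by 0.97 (SE 0.08) and Ifngr1, a chain of the interferon gamma receptor, lower (-0.92, SE 0.09).

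All 10 interferon-inducible GTPases measured were lower in DR500, 8 of them beyond 2-fold (median -2.70). Gm12250, an immunity-related GTPase, was at 5.48 ± 0.09 in DR500 and 9.67 ± 0.17 in MR20, and the guanylate-binding protein Gbp3 at 6.60 ± 0.21 and 10.04 ± 0.10. Of 20 nucleic acid sensors and adaptors, 10 were lower and 4 higher, or 2 higher without DR500 array 2 or without MR20 array 2 or 3 (median -0.42). The Z-nucleic acid sensor Zbp1 differed by -3.16 (SE 0.06), and the RNA sensors Dhx58, Ifih1 and Tlr3 by -2.35, -2.28 and -2.22, whereas the adaptor Ticam1 was higher by 1.11 (SE 0.07). Of 16 genes of MHC class I presentation, 7 were lower and 3 higher (median -0.10). The differences there were smaller, led by Tapbpl, a peptide editor (-1.19, SE 0.06), and Psmb10, an immunoproteasome subunit (-1.08, SE 0.07). H2-M3, which presents formylated peptides, was higher by 0.88 (SE 0.11).

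Chemokines steer leukocytes, and colony-stimulating factors and interleukin 1 act on myeloid cells. Of 17 chemokines that attract T cells and monocytes, 11 were lower in DR500 and 0 higher, or 2 higher without DR500 array 3 (median -1.01). Ccl5, a chemokine that attracts T cells and monocytes, was at 9.94, 9.82 and 9.96 in DR500 and at 12.05, 12.09 and 12.06 in MR20, with 4T1 at 9.69 to 9.74. Cxcl10, a ligand of CXCR3, was at 8.07, 7.90 and 8.23 against 10.11, 10.03 and 10.06. Both lay in DR500 above 4T1 without overlap and about 4-fold below MR20, with differences of -2.16 (SE 0.07) and -2.00 (SE 0.09). Cxcl16 (-2.07, SE 0.08) and Cxcl9 (-1.65, SE 0.13) were lower too. Of 21 neutrophil chemokines, colony-stimulating factors and interleukin 1 family genes, 11 were lower and 3 higher. Il1a, the alarmin interleukin 1 alpha, was at 8.26, 8.35 and 8.62 in DR500 and at 12.65, 12.66 and 12.73 in MR20, with 4T1 at 11.79 to 11.87. Its difference of -4.27 (SE 0.10) was 19.3-fold (adjusted p = 4.82e-08, limma), and here DR500 was the line apart from 4T1. Csf2, which encodes GM-CSF, was at 5.80, 5.97 and 5.54 against 9.70, 9.59 and 9.51, and 4T1 at 7.18 to 7.38 lay between. Cxcl2, a neutrophil chemokine, differed by -3.03 (SE 0.19), and Nos2, the inducible nitric oxide synthase, by -2.78 (SE 0.07). Il11, an IL6-type cytokine, was higher in DR500 (8.20 ± 0.14 against 6.30 ± 0.10). Csf1 and Cxcl1 did not pass, with differences of -0.03 and -0.04. Of 26 immune checkpoint and suppressive surface genes, 7 were higher and 6 lower (median 0.11). Vtcn1 (B7-H4), which inhibits T cells, was at 5.31 ± 0.10 in DR500 and 8.39 ± 0.10 in MR20, Vsir (VISTA) was higher by 1.49 (SE 0.07), and Cd274 (PD-L1) was lower (-0.60, SE 0.09).

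Acute phase proteins are secreted in inflammation after IL6-type cytokines act through gp130 and STAT3. Of 27 acute phase and IL6 response genes, 21 were higher in DR500 and 0 lower, 14 beyond 2-fold, with a median of 1.14. The median relative to 4T1 was 0.96 in DR500 and 0.07 in MR20. The receptors were among the largest rises. Lifr, the receptor of leukaemia inhibitory factor, was at 10.67, 10.76 and 10.84 in DR500 and at 6.56, 6.46 and 6.11 in MR20, a 20.8-fold difference (log2 4.38, SE 0.12). Osmr, the oncostatin M receptor, was higher by 3.61 (SE 0.08) and Il4ra, a chain of the interleukin 4 receptor, by 1.56 (SE 0.06). Stat3 was at 11.40 ± 0.06 against 9.91 ± 0.08 (1.49, SE 0.07). Among the secreted products, Saa2, a serum amyloid A, was at 9.16, 9.75 and 9.93 in DR500 and at 4.41, 4.61 and 4.39 in MR20 (log2 5.14, SE 0.18, adjusted p = 3.87e-07, limma). Lrg1, a leucine-rich plasma glycoprotein, was higher by 5.13 (SE 0.11) and Saa3 by 4.67 (SE 0.21), with 4T1 beside MR20 or below it. Haptoglobin (Hp) was higher by 1.82 (SE 0.11). The fibrinogen genes Fga, Fgb and Fgg did not pass, at 0.28, 0.09 and 0.02. Near to this list, the complement and coagulation genes moved both ways, with 8 of 26 higher and 4 lower. C1s1, a complement protease, was higher by 2.55 (SE 0.19), while the tissue factor pathway inhibitor Tfpi was at 5.44 ± 0.19 in DR500 and 9.88 ± 0.04 in MR20, and Serpinb2, an inhibitor of urokinase, at 5.04 ± 0.03 and 8.78 ± 0.24.

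STAT dimers bind gamma-activated sites, searched here as TTCNNNGAA on both strands. Of the 27 genes, 24 had a promoter and 4 of these held the letters (16.7%), against 2197 of all 27025 promoters (8.13%). Of the 13 called members with a promoter, only 2 held the letters before the start. These were Socs3 and Steap4, whose windows are shown with the site in capitals.
Socs3, chr11:117969477-117969556, minus strand: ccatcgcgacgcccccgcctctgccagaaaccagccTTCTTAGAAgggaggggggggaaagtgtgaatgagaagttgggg
Steap4, chr5:7960320-7960399, plus strand: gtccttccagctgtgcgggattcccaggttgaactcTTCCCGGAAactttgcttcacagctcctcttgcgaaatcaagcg
Socs3 was at 11.01, 10.87 and 10.95 in DR500 and at 8.69, 8.56 and 8.43 in MR20, a difference of 2.38 (SE 0.08), which was 0.89 on the dimmer of its 2 probe sets. Steap4, a metalloreductase induced by inflammatory cytokines, was at 11.68 ± 0.02 in DR500, 9.52 ± 0.11 in MR20 and 6.55 ± 0.02 in 4T1, so it was above the parent in both lines.

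Epithelial cells are held together by E-cadherin, tight junction claudins and desmosomes, and the genes are kept active by factors such as GRHL2 and EHF and spliced in an epithelial pattern by ESRP1. Of 29 junction and adhesion genes, 22 were lower in DR500 and 2 higher (median -0.85), 14 lower beyond 2-fold. The list's median relative to 4T1 was -1.04 in DR500 and -0.15 in MR20. Cldn4, a claudin, was at 7.00, 6.37 and 6.27 in DR500 and at 11.92, 12.11 and 11.97 in MR20, a 44.0-fold difference (log2 -5.46, SE 0.18, adjusted p = 2.37e-07, limma). Epcam, an adhesion molecule of carcinomas, was at 6.91, 6.75 and 6.81 against 10.78, 10.85 and 10.89. Cdh1, which encodes E-cadherin, was at 7.04, 7.34 and 7.23 against 10.95, 10.91 and 10.95. In all 3 genes the 4T1 arrays were near or above MR20. Cldn3 and Cldn7 were lower by similar amounts (-3.82, SE 0.12 and -3.73, SE 0.16). Cdh3 (P-cadherin) and F11r (a junctional adhesion molecule) did not pass, at -0.14 and -0.20.

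Of 15 desmosome and plakin genes, 10 were lower and 1 higher, or 2 higher without DR500 array 2 or 3 (median -0.86). Desmoglein 2 (Dsg2) was at 4.92 ± 0.12 in DR500 and 8.27 ± 0.08 in MR20, and desmoplakin (Dsp) at 7.27 ± 0.08 and 9.75 ± 0.05. Of 14 keratins, 7 were lower and 1 higher, or 0 higher without DR500 array 2 or 3 or MR20 array 2 or 3 (median -0.37). Beside Krt7 and Krt14, Krt19 differed by -3.05 (SE 0.09) and Krt17 by -1.50 (SE 0.10), whereas Krt5, the usual partner of Krt14, did not pass (0.03). Of 22 regulators of epithelial transcription and splicing, 11 were lower and 4 higher (median -0.26). Beside Esrp1, Ehf was at 6.28 ± 0.49 against 10.68 ± 0.10 and Grhl2 at 5.61 ± 0.17 against 9.05 ± 0.05. Ehf was higher in MR20 than in 4T1 (8.65 ± 0.03) while Grhl2 in 4T1 was near MR20. Elf3, Elf5 and Gata3 did not pass (0.19, 0.02 and 0.12). Of 22 proposed breast cancer stem cell markers, 7 were lower and 3 higher. Aldh3a1, an aldehyde dehydrogenase, was higher by 2.11 (SE 0.06), and Cd44, a hyaluronan receptor, was lower (-0.83, SE 0.18).

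ZEB and SNAI repressors bind E-boxes of the form CACCTG. Of the 29 junction genes, 22 had a promoter and 14 of these held these letters on either strand (63.6%), against 5252 of 27025 (19.4%). Among the called members with a promoter, 7 of 11 held the E-box, a share no higher than that of the list. The windows of the 3 called members with the largest differences that hold it before the start are shown, with the E-box in capitals (CAGGTG on the other strand).
Cldn4, chr5:134946935-134947014, minus strand: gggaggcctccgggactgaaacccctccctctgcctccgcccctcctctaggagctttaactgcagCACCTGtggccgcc
Epcam, chr17:87635899-87635978, plus strand: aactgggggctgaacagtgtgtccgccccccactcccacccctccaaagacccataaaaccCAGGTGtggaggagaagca
Cldn7, chr11:69965327-69965406, plus strand: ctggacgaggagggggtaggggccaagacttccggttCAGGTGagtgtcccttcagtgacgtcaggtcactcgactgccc
In Cldn4 and Epcam the E-box ends within 14 bases of the start. Junction promoters are rich in C and G, and the share over all promoters was not matched for base composition.

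Mesenchymal genes moved less uniformly. Of 31 mesenchymal genes and EMT factors, 14 were higher in DR500 and 3 lower, with a median of 0.19. Zeb2, an E-box repressor, was at 9.58 ± 0.11 in DR500 and 7.75 ± 0.14 in MR20 (4T1 at 8.09 ± 0.07), a difference of 1.82 (SE 0.09). Zeb1, Twist1 and the intermediate filament gene Vim did not pass, at -0.20, 0.06 and 0.14, and Vim was above 13 in both lines. Tpm2, a tropomyosin, was higher by 2.93 (SE 0.07) and Acta2, smooth muscle actin, by 1.08 (SE 0.08). Inhba, the activin A subunit, went the other way (6.93 ± 0.14 against 10.55 ± 0.06). Of 41 collagens, laminins and matrix proteins, 15 were higher and 9 lower. Subunits of the laminin that anchors epithelium were lower (Lamb3 -3.06, SE 0.13, and Lama3 -2.44, SE 0.13), as was tenascin C (Tnc -2.43, SE 0.10). Col6a1 and Col12a1 were each higher by 1.40 (SE 0.14 and 0.07). Of 19 integrins, 8 were lower and 6 higher, with the epithelial Itgb6 at -3.05 (SE 0.10), the collagen receptor Itga2 at -2.55 (SE 0.09) and the leukocyte integrin Itgb7 at 2.10 (SE 0.08). Of 24 matrix proteases and inhibitors, 9 were higher and 5 lower, led by Mmp19 (8.86 ± 0.18 against 5.51 ± 0.23), while Mmp9 was lower (-1.29, SE 0.07) and Timp1, Timp2 and Timp3 did not pass.

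**Figure D3:**
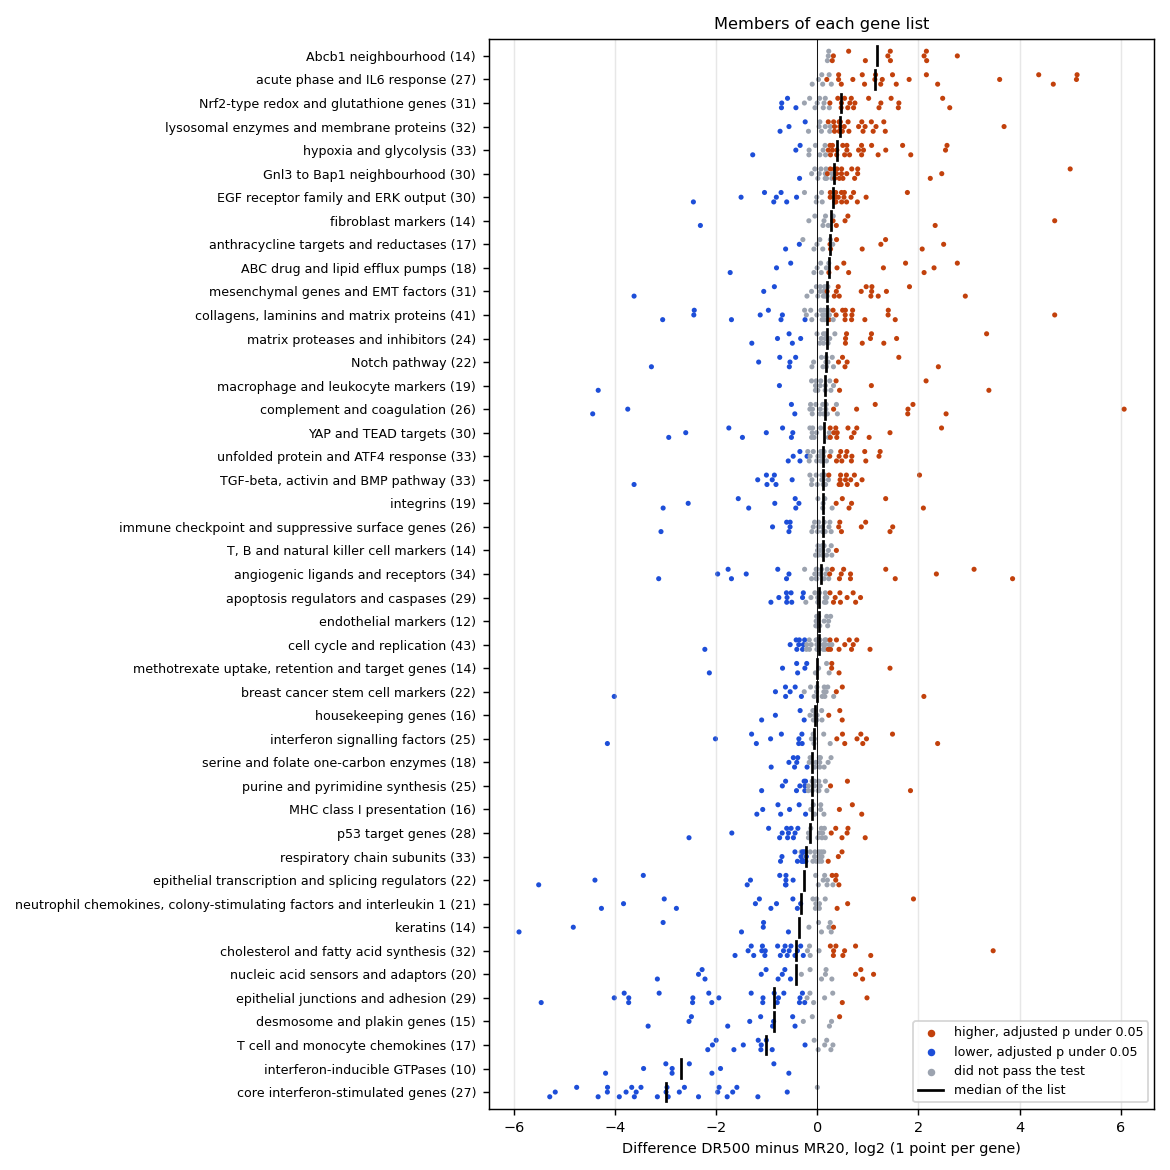
Difference between DR500 and MR20 (log2) for the measured members of 45 gene lists, with 1 point per gene, colour for the side on which it passed the test, and a bar at the median of each list (number measured in brackets). The core interferon list lies lowest (median -2.99) and the acute phase list and the neighbours of Abcb1 highest (1.14 and 1.17), while most lists have medians near 0 with members on both sides.

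Genes that handle the selecting drugs differed as well. ABC transporters pump lipids and drugs out of cells, and the product of Abcb1a and Abcb1b, P-glycoprotein, exports anthracyclines. Of 18 pumps, 9 were higher in DR500 and 3 lower (median 0.23). Abcb1b was at 11.33, 11.41 and 11.36 in DR500, at 8.63, 8.60 and 8.56 in MR20 and at 10.04 to 10.05 in 4T1. Its difference of 2.77 (SE 0.06) was 6.82-fold (adjusted p = 4.68e-08, limma), and relative to 4T1 it was 1.32 in DR500 and -1.45 in MR20. Abcb1a was at 7.78, 8.25 and 8.22 against a mean of 5.97 ± 0.05, with 4T1 between at 6.78 to 6.86. The cholesterol exporters Abca1 and Abcg1 were higher by 2.31 (SE 0.10) and 1.75 (SE 0.08). Abcg2, which exports methotrexate among other drugs, was lower in DR500 (7.42 ± 0.24 against 9.14 ± 0.03), and both lines lay above 4T1 (6.30 ± 0.15). Abcc1 did not pass (-0.07).

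Carbonyl reductases such as Cbr1 and Cbr3 convert anthracyclines to less toxic alcohols. Of 17 anthracycline targets and reductases, a list that also holds enzymes of other kinds, 8 were higher and 2 lower. Xdh, xanthine dehydrogenase, was at 11.92 ± 0.04 against 9.42 ± 0.12, and Cbr3, a carbonyl reductase, at 7.11 ± 0.11 against 5.04 ± 0.28. Nqo1, a quinone reductase, and Cbr1 were higher by 1.26 (SE 0.07) and 0.89 (SE 0.07). The target Top2a was slightly lower (-0.35, SE 0.07) and Top2b did not pass (-0.28). Of 14 methotrexate uptake, retention and target genes, 6 were lower and 4 higher (median -0.01). Ggh, which removes the polyglutamate tail that holds methotrexate in the cell, was at 6.19 ± 0.15 in DR500 and 8.32 ± 0.05 in MR20, with 4T1 at 8.22 ± 0.12 beside MR20. Nt5e (CD73), which makes adenosine, was higher by 1.44 (SE 0.08), with MR20 the line below 4T1. Differences of the uptake carrier Slc19a1 (0.29, SE 0.09), the folate receptor Folr1 (-0.69, SE 0.10) and thymidylate synthase, Tyms (0.43, SE 0.07), were small, and dihydrofolate reductase was not analysed here. Of 18 serine and folate one-carbon enzymes, 7 were lower and 0 higher, none beyond 2-fold (median -0.10). Of 25 genes of purine and pyrimidine synthesis, 9 were lower and 3 higher, with the salvage enzyme Hprt at -1.10 (SE 0.10) and the muscle-type enzyme Adssl1 at 1.84 (SE 0.14).

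Redox, hypoxia and lysosome genes were mostly higher in DR500. Of 31 genes of the NRF2 and glutathione system, 18 were higher and 4 lower (median 0.47). The glutathione transferases Gstm1 and Gstm2 were higher by 2.62 (SE 0.09) and 2.48 (SE 0.10), and the cystine carrier Slc7a11 by 1.22 (SE 0.06). Txnip, an inhibitor of thioredoxin, was at 11.55 ± 0.01 in DR500, 9.94 ± 0.09 in MR20 and 7.90 ± 0.14 in 4T1. Of 33 hypoxia and glycolysis genes, 23 were higher and 3 lower (median 0.39), among them the carbonic anhydrases Car12 and Car9 (2.57, SE 0.08 and 2.54, SE 0.12). For Car9, MR20 at 7.05 ± 0.23 was below both DR500 at 9.58 ± 0.09 and 4T1 at 10.03 ± 0.06. Ndrg1 was higher by 1.85 (SE 0.07) and Vegfa by 1.35 (SE 0.06), whereas the vasodilator peptide gene Adm was lower (-1.28, SE 0.12) and Hk2, Ldha and Pdk1 did not pass. Of 32 lysosomal genes, 22 were higher and 3 lower (median 0.44). Hexa, a subunit of hexosaminidase, was at 8.74, 9.01 and 8.93 in DR500 and at 5.11, 5.19 and 5.29 in MR20, 12.9-fold, with 4T1 at 7.97 ± 0.07. Neu1, a sialidase, and Ctsb, cathepsin B, were higher by 1.35 (SE 0.09) and 1.32 (SE 0.07).

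Cholesterol synthesis genes ran the other way. Of 32 genes of cholesterol and fatty acid synthesis, 19 were lower in DR500 and 9 higher (median -0.42). The isoprenoid and sterol enzymes Idi1, Hmgcs1 and Cyp51 differed by -1.63 (SE 0.15), -1.37 (SE 0.07) and -1.31 (SE 0.12). The desaturase Scd1 was at 11.79, 11.89 and 11.92 in DR500 and at 8.54, 8.37 and 8.26 in MR20 (3.48, SE 0.09), with 4T1 at 11.03 ± 0.03, so MR20 was the line apart. Of 33 genes of the unfolded protein and ATF4 response, 13 were higher and 5 lower (median 0.12), led by the chaperone Dnajc3 (1.24, SE 0.06) and by Slc7a11. The sensor Ern1 and its target Xbp1 were higher by 0.96 and 0.94, and Atf4 itself did not pass (0.07). Of 33 respiratory chain subunits, 15 were lower and 3 higher, none beyond 2-fold (median -0.22), and without MR20 array 2 only 8 were lower.

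Signalling pathways held large differences in single ligands and receptors. Of 30 YAP and TEAD targets, 13 were higher and 8 lower (median 0.14). The matricellular genes Ccn2 and Ccn1 were lower (-2.94, SE 0.07 and -1.01, SE 0.07), as were Edn1, which encodes endothelin 1 (-2.60, SE 0.14), and Ankrd1, a nuclear ankyrin repeat protein (-1.75, SE 0.11). Foxf2, a forkhead factor, was higher by 2.46 (SE 0.09). The TEAD motif GGAATG stood in 11 of the 22 promoters of this list (50%), against 3880 of 27025 (14.4%), both strands searched. Among the called members with a promoter, 4 of 6 held the motif. The windows of the 3 called members with the largest differences that hold it before the start are given, 2 lower and 1 higher in DR500, with the motif in capitals (CATTCC on the other strand).
Edn1, chr13:42301232-42301311, plus strand: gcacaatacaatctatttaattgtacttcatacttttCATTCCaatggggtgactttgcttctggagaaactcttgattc
Ankrd1, chr19:36119925-36120004, minus strand: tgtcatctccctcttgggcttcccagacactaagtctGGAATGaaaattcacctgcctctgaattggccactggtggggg
Crim1, chr17:78200132-78200211, plus strand: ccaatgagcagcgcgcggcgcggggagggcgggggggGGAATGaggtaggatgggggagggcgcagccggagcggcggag
Crim1, a membrane protein that binds BMP ligands, was higher in DR500 by 1.03 (SE 0.07), so members with the motif lay on both sides.

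Of 22 Notch pathway genes, 6 were higher and 6 lower. The receptor Notch1 was at 9.82 ± 0.17 in DR500 and 7.42 ± 0.17 in MR20 and the ligand Jag1 at 7.77 ± 0.15 and 11.05 ± 0.02, a difference of 2.39 (SE 0.11) for the receptor and -3.28 (SE 0.08) for the ligand. Of 33 TGF-beta, activin and BMP genes, 13 were higher and 8 lower, with Inhba lowest and the coreceptor Tgfbr3 highest (2.02, SE 0.09). Of 30 genes of the EGF receptor family and ERK output, 17 were higher and 8 lower (median 0.30). Erbb3, the neuregulin receptor, was lower (-2.45, SE 0.14), as was the ligand Epgn (-1.51, SE 0.12), and the phosphatase Dusp1 was higher (1.78, SE 0.06). Of 34 angiogenic ligands and receptors, 12 were higher and 8 lower. The ligand Pdgfb was lower (7.36 ± 0.03 against 10.49 ± 0.06), while Angpt1 and the lymphatic growth factor Vegfd (2.36, SE 0.11) were higher, as was Serpinf1, which encodes the angiogenesis inhibitor PEDF (3.10, SE 0.07).

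Most of the proliferation and death genes measured were not called. Of 43 cell cycle and replication genes, 11 were higher and 9 lower (median 0.03), with 1 on each side beyond 2-fold. These were Cdk6 (1.04, SE 0.07) and Ccnd2, which encodes cyclin D2 (6.97 ± 0.21 in DR500, 9.20 in MR20 and 10.62 ± 0.05 in 4T1). Mki67, the proliferation antigen, did not pass, at 11.19 ± 0.14 in DR500 and 11.34 ± 0.08 in MR20. Of 28 p53 targets, 12 were lower and 6 higher, led by Perp, which is also a desmosome gene (-2.54, SE 0.06), and Gadd45b (-1.69, SE 0.08). Of 29 apoptosis regulators and caspases, 9 were higher and 9 lower, none beyond 2-fold, with Tnfsf10 (TRAIL) at -0.92 (SE 0.11) and Casp1 at 0.86 (SE 0.11). Of 16 housekeeping genes, 3 were higher and 4 lower (median -0.05). Actb, Ppia and Eef1a1 lay within 0.04 of 0 and did not pass, whereas Hprt and Tfrc were lower (-1.10, SE 0.10 and -0.83, SE 0.07).

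The 4T1 arrays were used to place the called genes, as a description with no test. Both derivatives are set against the same 3 parental arrays, so their differences from 4T1 share an error. Of the 572 genes higher in DR500, 306 (53.5%) had a 4T1 level between the lines and nearer to MR20, 110 (19.2%) between them and nearer to DR500, 137 (24.0%) below both and 19 (3.32%) above both. Of the 644 lower genes, 265 (41.1%) had 4T1 between and nearer to MR20, 127 (19.7%) between and nearer to DR500, 162 (25.2%) above both and 90 (14.0%) below both. By the medians given above, core interferon genes lay at the 4T1 level in DR500, and junction and acute phase genes lay near it in MR20.

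**Figure D4:**
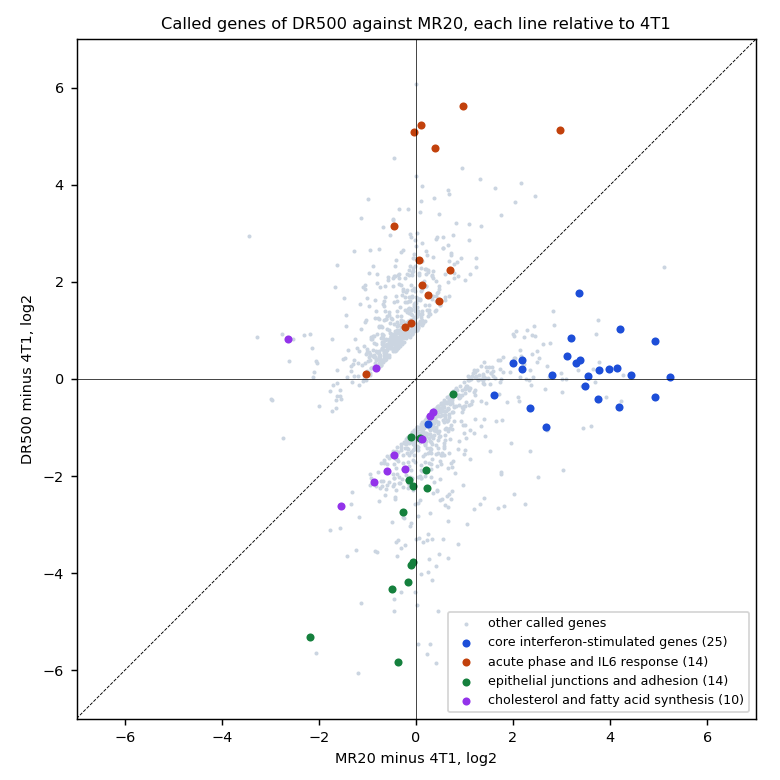
The 1216 called genes by their difference from 4T1 in MR20 (x axis, log2) and in DR500 (y axis, log2), with 4 lists in colour and a dashed line where both lines are equal. Core interferon genes lie along the x axis on the right, where MR20 is above 4T1 and DR500 near it, acute phase genes stretch up the y axis and junction genes down it, and the called cholesterol and fatty acid genes lie mostly below 0 in DR500.

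Differences were unevenly spread over the genome, which was looked at by chromosome after runs of neighbouring genes had been seen. On the GRCm38.p6 order, 19916 genes were placed. On chromosome 17, 402 of 940 genes (42.8%) were higher in DR500 and 35 (3.72%) lower, and on chromosome 14 it was 254 of 701 (36.2%) and 40 (5.71%), against 18.5% and 19.1% over all placed genes. The reverse was found on chromosome 10, where 90 of 939 genes (9.58%) were higher and 364 (38.8%) lower, on chromosome 18 (9.77% higher and 38.0% lower of 471), on chromosome 11 (11.9% and 31.5% of 1566) and on X (5.66% and 30.1% of 742). Other chromosomes leaned this way too, among them 13 (12.0% and 29.1% of 735) and 19 (13.1% and 26.1% of 678). Over all genes of a chromosome, the median difference was 0.23 on chromosome 17 and 0.18 on 14, and 0.01 on X, -0.04 on 10 and -0.06 on 18, against 0.07 over all placed genes. The medians were further from 0 among genes above the median level, at 0.44 on chromosome 17 and 0.40 on 14, and at -0.50 on X, -0.42 on 10 and -0.37 on 18, against -0.03 over all placed genes of that level. Relative to 4T1, the 341 such genes of chromosome 14 had a median of -0.03 in DR500 and -0.40 in MR20, and the 501 of chromosome 10 had -0.36 and 0.01. Over all genes of the chromosome, these medians were 0.06 and -0.12 for chromosome 14 and -0.05 and -0.01 for chromosome 10. With dim genes left out, the shares rose to 76.6% higher on chromosome 17, 69.4% higher on 14, 70.3% lower on 10 and 78.2% lower on X, and those over all placed genes to 31.6% higher and 37.3% lower.

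Along the chromosomes, 51 runs of at least 5 consecutive measured genes passed the test on the higher side and 41 on the lower side. The longest held 10 genes, such as Srf to Pex6 on chromosome 17 (median 0.61) and Tmem199 to Lgals9 on chromosome 11, which includes Nos2 (median -0.53). Stat2 lay in a run of 7 lower genes that ends at Ankrd52 (median -0.61), and F5 in a run of 7 higher genes from BC055324 to Blzf1 (median 0.43), in which F5 and the adhesion receptor gene Sele (2.39, SE 0.10) exceeded their neighbours. From Spcs1 to Tnnc1 on chromosome 14, 9 genes in a row were higher (median 0.68), with a median relative to 4T1 of 0.08 in DR500 and -0.72 in MR20. Nt5dc2 (2.24, SE 0.07) and the troponin gene Tnnc1 (2.46, SE 0.11) were its largest members. Around the P-glycoprotein genes, the 6 genes from Rundc3b to Tmem243 were all higher (median 1.78), and their median relative to 4T1 was 0.80 in DR500 and -0.76 in MR20. Of 14 genes listed as the neighbourhood of Abcb1, 11 were higher and 0 lower. Rundc3b, at 7.64, 7.84 and 8.09 in DR500 and 5.87, 5.73 and 5.47 in MR20, overlapped 4T1 (7.72 to 7.89) in DR500 and lay below it in MR20, whereas Abcb1a and Abcb1b left the parental level in both lines and in opposite directions. The next genes, Dmtf1 and Slc25a40, did not pass (0.23 and 0.22), but genes beyond them were higher again. Past Dmtf1, Elapor2 was higher by 1.28. Past Slc25a40, Sri, Steap4, Steap1 and Steap2 were higher by 0.95, 2.16, 1.19 and 1.29, so Steap4, given above with the acute phase genes, lies in this neighbourhood. Tex47, Zfp804b, Grm3 and Sema3d did not pass, and Sema3a and Speer3 were lower (-0.61 and -0.39).

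**Figure D5:**
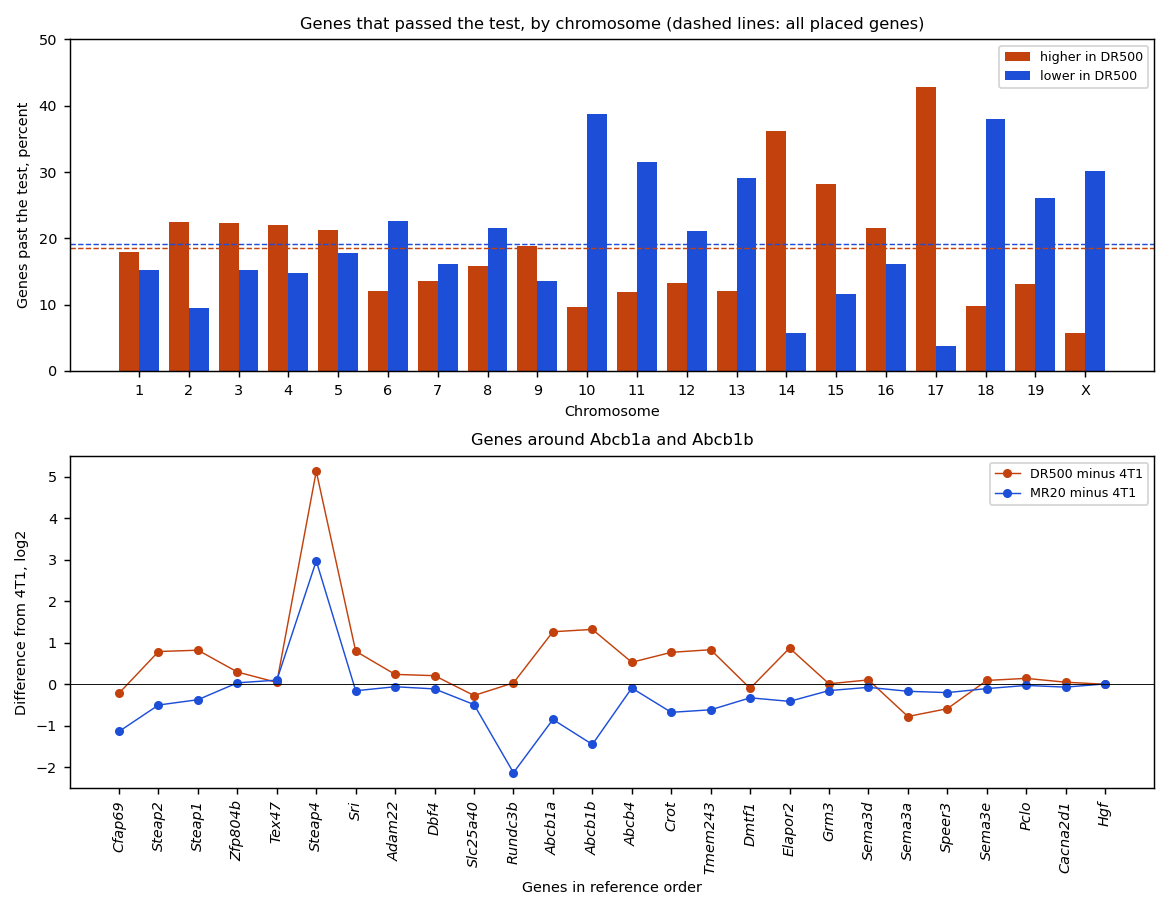
Top, share of genes of each chromosome that passed the test (percent) higher or lower in DR500 than in MR20, with dashed lines for all placed genes. Bottom, mean difference from 4T1 (log2) of DR500 and MR20 for genes around Abcb1a and Abcb1b in reference order. Chromosomes 14 and 17 have 36.2% and 42.8% of genes higher and 10 and 18 have 38.8% and 38.0% lower, and Abcb1b lies at 1.32 in DR500 and -1.45 in MR20.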

How the data were processed

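RNA from triplicate wells of 4T1, MR20 and DR500 cells was read on Affymetrix whole-transcript mouse arrays with 1 colour. The deposited values are log2 expression values that the authors made by robust multi-array normalization with the package affy, which corrects background, normalizes quantiles and summarises probe sets. The version of affy is not given in the sources used here, nor whether the 9 arrays were processed together. Of 35556 probe sets, 21789 had exactly 1 symbol (21698 named through the Entrez identifier, 91 by the symbol), which gave 19938 genes. The probe set with the highest mean over the 9 arrays stood for each of 999 genes with several. In 2 of 58 called genes with several probe sets, another passed in the opposite direction.

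Differences came from limma 3.58.1 in R 4.3.3 (lmFit and eBayes on the 6 DR500 and MR20 arrays, a mean per line, 4 residual and 3.87 prior degrees of freedom), with Benjamini-Hochberg adjustment over 19938 genes. SE is that of limma. The R package data.table, version 1.17.8, read the files. The fit was tested on simulated data. Arrays limit the precision by their number. The members and gene lists were chosen with earlier results of these data known. Genes were named by a rule: the 15 largest rises and the 15 largest falls of called genes with separate array values, the 4 largest passing members of each list, Irf7, Irf9 and Stat2, and the ends and 3 largest members of each run. Others were named after their values were seen. Promoter sequences and gene order are from RefSeq, GRCm38.p6. Alternatives were all 9 arrays in the fit, a filter on dim genes, repeated quantile normalization, median centring, other probe set rules, all probe sets, a variance trend with robust fit, a replicate block, leaving out each array, a minimum fold tested with treat, and other run lengths. No array was left out.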

Additional observations from a re-analysis of the deposited data

Results flagged for a closer look

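Probe sets outside the named genes also carried a difference between DR500 and MR20. Of 12146 probe sets with no listed gene, 496 were called (limma, adjusted over these probe sets), 63 higher and 433 lower in DR500, with extremes of 5.90 and -4.90. Of 1621 probe sets with several gene symbols, 58 were called, 9 higher and 49 lower. Both sets had 4.08% and 3.58% called, against 6.1% of the genes, and neither was used in the comparisons above.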

How the results depend on the processing

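The counts of 572 higher and 644 lower genes stayed within 1.5 times under every alternative that kept the call rule, from 513 to 597 and from 564 to 678, and leaving out each array in turn gave 550 to 589 and 603 to 670. A test against a minimum of 2-fold (treat) gave 318 and 352 genes, and no fold threshold 3679 and 3811. No pairing of arrays by replicate number was found, since deviations of same-numbered arrays correlated at -0.309, 0.147 and -0.294 across genes. Those of unlike number lay at -0.150 to 0.382, highest for DR500 array 3 with MR20 array 1 (0.382) and DR500 array 1 with MR20 array 3 (0.325). Array 2 alone correlated best with its own number, and a pairing in another order was not tested. The replicate block leaves the differences of this balanced fit unchanged, so its counts of 572 and 644 cannot decide on pairing. With the block, 15.2% of placed genes passed as higher and 16.7% as lower, against 18.5% and 19.1% without it. The called genes with 4T1 nearer to MR20 numbered 298 to 314 and 248 to 282 with 1 array left out. Runs of at least 4 genes numbered 110 higher and 95 lower, and of at least 6 genes 27 and 18. The runs were not counted again under other fits or with an array left out. Some of their end genes lost the threshold in many such settings, for example Asic3 in 10 and Pim1 in 8. With the dimmest probe set, Cdk7 (0.0558), Crybg1 (0.0472), Dab2 (-0.1385) and Elf4 (0.0299) changed sign, and other named genes kept their direction in 7049 checks and lost the threshold in 202. Counts of gene lists stayed within 1.5 times in 1230 checks and moved further in 30. Of these 30, 17 came with an array left out and 7 with dim genes left out. List medians moved by more than the spread in 27 checks and not in 601. At an unadjusted p under 0.05 in limma, 3 of the T cell and monocyte chemokines were higher, and core interferon genes still had 0 higher and acute phase genes 0 lower. Shares of chromosomes, an addition made after the data were seen, stayed within 1.5 times in 525 checks and moved further in 35, of which 33 came with dim genes left out and 2 with an array left out. Array number and low signal near the background limit small differences of dim genes.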
